A study of Mus musculus with 20 samples.

Results

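The 51 genes described here encode the enzymes that copy DNA in S phase, the factors that license replication origins and start the replicative helicase, the enzymes that supply deoxynucleotides, the proteins that copy chromatin and its methylation, and the E2F factors and E-type cyclins that act at S phase entry. Brca1, which acts in homologous recombination and at stalled forks, is the one repair gene among them. They were taken by gene symbol from a list, with the longest transcript standing for each symbol, and are 51 of the 23992 symbols in the deposited tables. Each of them had at least 401 reads in every library, and all 51 passed the filter on low counts in both experiments.

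DNA replication is prepared when the origin recognition complex, Cdc6 and Cdt1 load the MCM helicase onto DNA, and it starts when Cdc45 and the GINS complex join that helicase. The polymerases then extend primers, held to DNA by the sliding clamp Pcna, and Fen1 and Lig1 join the pieces of the lagging strand. E2F transcription factors, held in check by the retinoblastoma protein until cyclin-dependent kinases act, drive many of these genes, which are therefore high in dividing T cells.

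CD8+ T cells from the spleens of wild-type C57BL/6J mice aged 6 to 8 weeks were first activated for 48 hours with plate-bound anti-CD3 and soluble anti-CD28 and then rested overnight, so every group, the unstimulated one included, had been activated. They were then given native murine IL-21 (mIL-21) or 21h10, a computationally designed protein that mimics IL-21, for 24 hours. Other cells were left without cytokine (unstimulated cells). The library labels state 24 hours for the treated cells and no time for the unstimulated ones, so a shared time of harvest is not given. Experiment 1 used 100 pM and 1 nM of each cytokine and experiment 2 used 10 nM and 100 nM. Unstimulated cells were sequenced in both experiments, which gave 5 groups of duplicate libraries (n = 2) per experiment and 20 libraries in all. The study's methods call the RNA-seq replicates independent and trace them to different tissue preparations or donors. The labels tie no library to a mouse, so the p-values measure the spread between these duplicate libraries.

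Reads on genes ranged from 36824740 to 94070730 per library in experiment 1 and from 27072917 to 43300094 in experiment 2. The genes of the set took 1.09% of the gene reads in unstimulated cells of experiment 1 and 0.480% to 0.591% in treated cells. The 5 CD8 T cell markers summed to between 1560 and 2660 CPM (reads as a share of the library in millionths, scaled by edgeR's TMM, which holds the bulk of the genes level) in every library, and were lowest in unstimulated cells, at 1560 CPM in experiment 1 and 2080 to 2190 in experiment 2. The CD4, B, NK and red cell marker lists each stayed at or below 14.3 CPM in sum. Of the myeloid list, Lyz2, Csf1r and Cd14 stayed below 0.3 CPM, while Itgam, an integrin that activated CD8+ T cells also make, carried the summed level. That sum was 0.778 to 0.999 CPM in unstimulated cells and 14.7 to 81.2 CPM in treated cells of experiment 1. In experiment 2 it was 3.25 to 3.44 CPM in unstimulated cells and 42.7 to 108 CPM in treated cells. The part of these marker shifts in the results below was not tested. The spread between duplicates was wider in experiment 2, where the biological coefficient of variation was 8.80%, than in experiment 1, where it was 4.32%.

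Promoter sequence was looked at for the letters that E2F factors bind, since these factors regulate much of the set. RefSeq promoter windows (GRCm38.p6, the assembly also called mm10, from 250 bases before to 50 after the RefSeq start) were matched by symbol for 42 of the 51 genes. For 33 of these the end of the window lay in the first bases of a GENCODE transcript of the gene, so the RefSeq start was not the start of a GENCODE transcript for all of them. GENCODE starts Cdc6 at base 98907801 and Orc1 at base 108579423. On the minus strand it starts Rfc3 at base 151651242 and Pold1 at base 44548849. The sites printed for these genes thus lie partly or wholly inside the gene by that annotation. The E2F words searched on both strands were TTTGGCGC, TTTCCCGC, TTTGCCGC and TTTCGCGC, matches that overlap being written as 1 capital run. They were present in 15 of the 42 windows (35.7%), against 2.32% of all 27025 windows. The following sequences show the match in capitals and are written 5′ to 3′ on the strand of the gene. They were taken from the genes with a match among those that lead the results below. Fen1, Rfc4, Pcna, Rrm2, Tyms and Ccne1 also lead those results but held no E2F word in the window searched. Cdc6 and Orc1 were among the largest falls, Mcm5 and Mcm6 belong to the helicase, Rfc3 showed the largest rise of 21h10 over mIL-21 at 1 nM, and in experiment 1 E2f2 rose and Pold1 did not pass the test.
Cdc6, chr11:98908002-98908031, plus strand: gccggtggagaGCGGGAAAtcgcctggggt
Mcm5, chr8:75109345-75109374, plus strand: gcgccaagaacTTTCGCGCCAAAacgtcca
Rfc3, chr5:151651200-151651229, minus strand: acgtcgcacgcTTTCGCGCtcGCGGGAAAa
Pold1, chr7:44548766-44548795, minus strand: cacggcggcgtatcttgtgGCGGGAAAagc
E2f2, chr4:136172294-136172323, plus strand: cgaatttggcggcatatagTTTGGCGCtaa
Orc1, chr4:108579416-108579445, plus strand: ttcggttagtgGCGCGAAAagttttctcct
Mcm6, chr1:128359686-128359955, minus strand: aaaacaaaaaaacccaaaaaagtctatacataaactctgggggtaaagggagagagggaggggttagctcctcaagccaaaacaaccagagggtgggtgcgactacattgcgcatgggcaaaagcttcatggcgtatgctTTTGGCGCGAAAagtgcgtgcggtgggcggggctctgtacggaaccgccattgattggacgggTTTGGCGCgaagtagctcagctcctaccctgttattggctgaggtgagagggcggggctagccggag

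The match began 27 bases before the RefSeq start in Orc1. In Pold1 and E2f2 it began after that start, at base 40 of the transcribed part. Mcm6 held 3 matches, which form the 2 capital runs of its window. The GC box GGGCGG was present in 31 of the 42 windows (73.8%) against 35.91% of all windows, and the CCAAT box CCAAT in 25 (59.5%) against 37.92%. The cell cycle homology region TTTGAA, known from mitosis genes, was present in 5 (11.9%) against 18.11%, and in 12 of the 17 mitosis genes with a window. The STAT site TTCNNNGAA, the letters bound by the factors that IL-21 activates, was present in 3 (7.1%) against 8.47%. A match is a description of letters and no evidence of binding.

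In unstimulated cells the levels of the 51 genes, compared per length as RPKM (reads per kilobase of transcript, scaled to the mapped reads of the library), differed widely. Pcna, the clamp, was highest at 551 ± 4.64 RPKM (SD, n = 2) in experiment 1 and 394 ± 9.29 RPKM in experiment 2. Mcm6 came next at 282 ± 6.45 and 233 ± 16.0 RPKM. Rrm2 (161 ± 2.29 RPKM), the regulated subunit of ribonucleotide reductase, and Mcm7 (160 ± 0.319 RPKM) did not differ beyond their spread in experiment 1, and Rrm1, the large subunit of the same enzyme, stood at 146 ± 0.433 RPKM, within the spread of Mcm5 (145.6 ± 3.61 RPKM). Near the bottom was E2f1, an activating E2F factor, at 11.1 ± 0.535 RPKM in experiment 1 and 9.34 ± 1.25 RPKM in experiment 2, where it overlapped with Orc1 (9.97 ± 0.65 RPKM). These orders describe transcript level only, and near-identical copies cover 51.45% of the Pcna transcript, 72.82% of that of Mcm7 and 19.11% of that of Rrm2, so reads may have been split with pseudogenes.

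Experiment 1 asked first how each cytokine at 100 pM and 1 nM changed the set against unstimulated cells. Nearly the whole set was lower after 24 hours with either cytokine at either dose, by about 1 log2 unit at the median. The summed CPM of the 51 genes was 11070 and 10940 in the unstimulated duplicates, and fell to 50.7% and 50.4% of their mean with 100 pM mIL-21, 45.0% and 45.3% with 100 pM 21h10, 44.2% and 44.0% with 1 nM mIL-21, and 47.4% and 46.5% with 1 nM 21h10. No treated library came near an unstimulated one, and the treated groups lay close together. In bulk RNA, fewer cells in S phase and less of these transcripts per cell cannot be told apart.

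**Figure D1:**
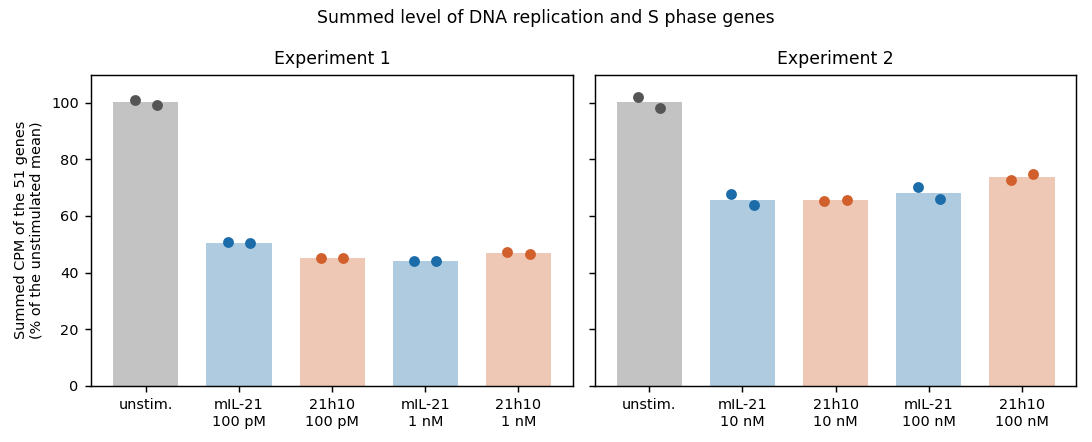
Summed CPM of the 51 genes in each library as a percentage of the mean of the unstimulated duplicates of its experiment; points are libraries, bars are means of duplicates, grey is unstimulated, blue mIL-21 and orange 21h10. Treated libraries lay between 44.0% and 50.7% in experiment 1 and between 63.7% and 74.9% in experiment 2.

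At an adjusted p under 0.05 (edgeR, quasi-likelihood F test), 49 of the 51 genes were lower and 1 was higher in each of these 4 comparisons, and the 49 were lower in all of them. With 100 pM mIL-21, 39.4% of all genes tested were lower and 38.3% higher; the corresponding shares were 41.3% and 40.2% with 100 pM 21h10, 40.3% and 39.9% with 1 nM mIL-21, and 42.1% and 38.3% with 1 nM 21h10. The median log2 fold change of the set was −1.01 with 100 pM mIL-21, −1.12 with 100 pM 21h10, −1.13 with 1 nM mIL-21 and −1.07 with 1 nM 21h10, where the median of all genes lay between −0.04 and 0.0. The 4 comparisons share the same unstimulated libraries, so they are not independent of each other.

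**Figure D2:**
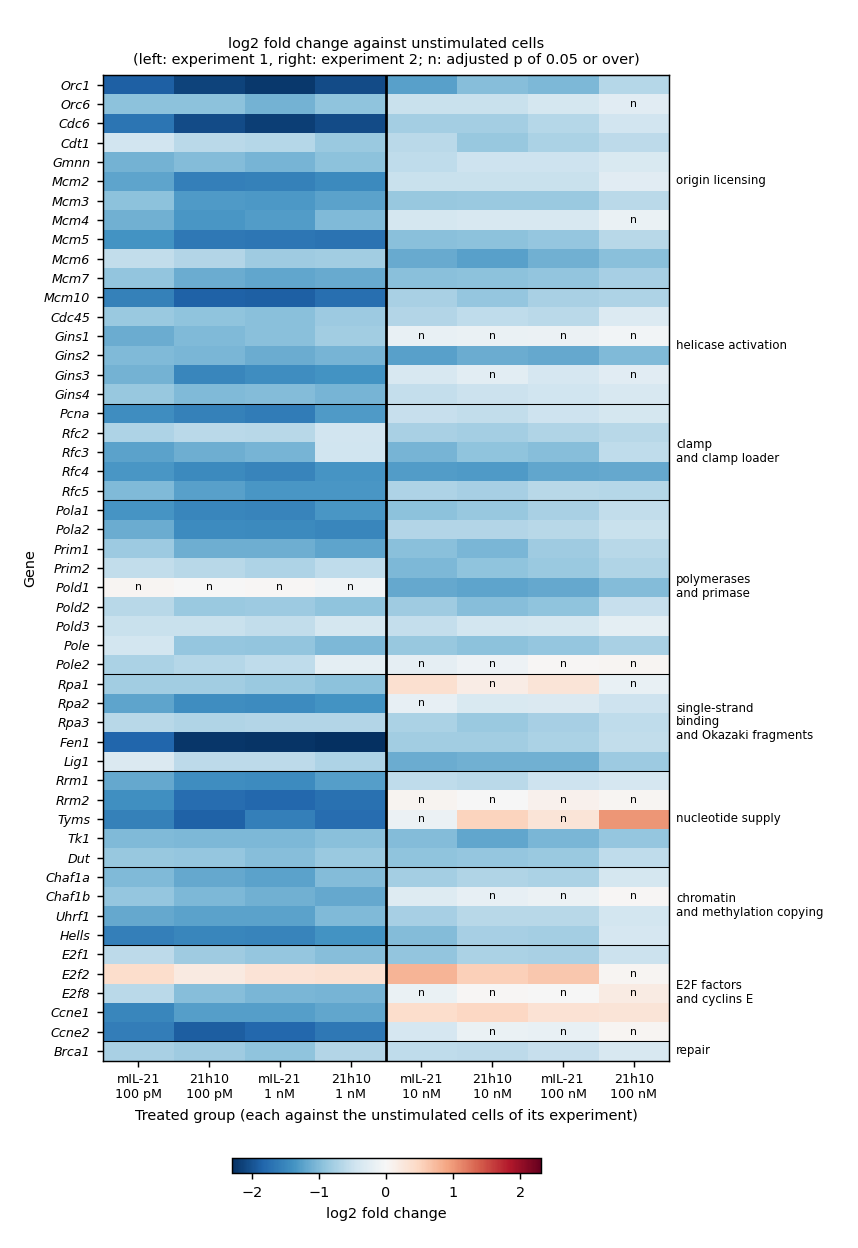
Log2 fold change of each gene (rows, grouped by role) in each treated group against the unstimulated cells of its experiment (columns); blue is lower, red higher, and n marks an adjusted p of 0.05 or over. The experiment 1 columns are blue throughout except for E2f2 and Pold1, and the experiment 2 columns are paler, with E2f2, Ccne1, Rpa1 and Tyms above 0 in several groups.

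The origin licensing genes were all lower, 11 of 11 in each comparison, with medians from −1.31 to −1.08. Orc1, the ATPase of the origin recognition complex that is itself made in a cell cycle-dependent way, stood at 69.2 and 67.8 CPM in unstimulated cells. It stood at 18.6 and 18.9 CPM with 100 pM mIL-21, 15.6 and 15.7 with 100 pM 21h10, 15.5 and 13.8 with 1 nM mIL-21, and 16.0 and 16.8 with 1 nM 21h10. Every treated library was thus far below both unstimulated ones. The log2 fold changes of Orc1 were −1.87 ± 0.0647 (SE; adjusted p = 3.58e-14), −2.13 ± 0.0636 (3.07e-15), −2.23 ± 0.0668 (3.49e-15) and −2.06 ± 0.0658 (6.43e-15) in the same order. The Orc1 exons share 10.81% of their bases with Gm12743 on the other strand, and the use of strand in counting was not given in the sources used here.

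Cdc6, the loader that joins the origin recognition complex, followed the same course from 142.9 and 139.1 CPM in unstimulated cells. It stood at 44.8 and 43.6 CPM with 100 pM mIL-21, 33.6 and 34.2 with 100 pM 21h10, 32.1 and 31.1 with 1 nM mIL-21, and 35.4 and 32.5 with 1 nM 21h10. The 100 pM mIL-21 libraries were the highest of the treated ones. Cdc6 thus changed, in log2 units, by −1.67 ± 0.0529 (SE; adjusted p = 1.17e-14), −2.05 ± 0.0528 (4.93e-16), −2.16 ± 0.0547 (4.22e-16) and −2.06 ± 0.0543 (4.84e-16), and a pseudogene copy covers 26.05% of its transcript. The helicase genes Mcm2 to Mcm7 fell by 0.57 (Mcm6, 100 pM mIL-21) to 1.70 (Mcm5, 1 nM 21h10) on the log2 scale. Cdt1, which brings the helicase to origins, fell least of the licensing genes with 100 pM mIL-21, by 0.45, while Gmnn, its inhibitor, fell by 0.94 to 1.08 across the groups.

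All 6 helicase activation genes were lower in each comparison. Mcm10, which helps start the helicase, fell most among them, by 1.56 to 1.88, and the 4 GINS subunits and Cdc45 fell by 0.79 to 1.5. All 5 clamp and clamp loader genes were lower as well. Pcna fell by 1.31 to 1.60, whereas Rfc2, a clamp loader subunit, fell by 0.45 to 0.72 and Rfc3, another subunit, by 0.46 to 1.23.

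Of the 9 polymerase and primase genes 8 were lower in each comparison. Pola1 and Pola2, subunits of the polymerase that makes primers with primase, fell by 1.13 to 1.52. Pold1, the catalytic subunit of the lagging strand polymerase, stood apart at 146 and 148 CPM in unstimulated cells and between 133 and 157 CPM in the treated libraries. Treated and unstimulated Pold1 values overlapped in every group but 100 pM mIL-21, whose libraries stood slightly higher at 150.1 and 151.0 CPM. The log2 fold changes of Pold1 ran from −0.06 to 0.04, with adjusted p from 0.332 to 0.873. The other Pold subunits, Pold2 and Pold3, fell by 0.64 to 0.92 and by 0.40 to 0.56.

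Among the single-strand binding and Okazaki fragment genes, all 5 were lower in each comparison. Fen1, the flap nuclease that trims Okazaki fragments, showed the largest fall of the whole set in 3 of the 4 comparisons, from 183 and 181 CPM in unstimulated cells. It stood at 52.6 and 50.4 CPM with 100 pM mIL-21, 36.7 and 39.9 with 100 pM 21h10, 37.8 and 38.3 with 1 nM mIL-21, and 40.4 and 34.4 with 1 nM 21h10. As for Cdc6, the 100 pM mIL-21 libraries were the highest of the treated ones. Fen1 thus changed, in log2 units, by −1.82 ± 0.0639 (SE; adjusted p = 4.26e-14), −2.24 ± 0.0641 (1.79e-15), −2.26 ± 0.0658 (2.4e-15) and −2.29 ± 0.0659 (1.57e-15). The exons of Fen1 share 78.82% of their bases with Gm10143 on the other strand, so its reads are the least certain of those named here. Lig1, the ligase that seals the fragments, fell by 0.33 to 0.70.

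The 5 nucleotide supply genes were all lower. Rrm2 changed by −1.81 to −1.41 and Tyms (thymidylate synthase) by −1.86 to −1.55. The Tyms record counted here and below is a non-coding transcript in RefSeq. Rrm1 fell by 1.17 to 1.45, Tk1 (thymidine kinase) by 0.96 to 1.03 and Dut (dUTPase) by 0.85 to 0.97. The 4 genes of chromatin and methylation copying were lower too. Hells, a chromatin remodeller needed for DNA methylation, fell by 1.37 to 1.57, and Uhrf1, which brings the maintenance methyltransferase to replicated DNA, by 1.02 to 1.23, though a copy covers 44.34% of its transcript. Brca1 fell by 0.68 to 0.93.

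The E2F and cyclin E group was the one group with members in both directions. E2f2, an activating E2F factor, was the single gene of the set that rose, from 90.1 and 88.6 CPM in unstimulated cells. It stood at 120 and 116 CPM with 100 pM mIL-21, 98.7 and 108 with 100 pM 21h10, 111 and 111 with 1 nM mIL-21, and 115 and 113 with 1 nM 21h10. All treated libraries were above both unstimulated ones. E2f2 thus changed, in log2 units, by 0.40 ± 0.0501 (SE; adjusted p = 9.48e-07), 0.21 ± 0.0497 (0.000792), 0.31 ± 0.0502 (1.91e-05) and 0.35 ± 0.0502 (4.3e-06). E2f1 fell by 0.61 to 0.98, E2f8, a repressor of the family, by 0.62 to 1.07, Ccne1 (cyclin E1) by 1.19 to 1.5 and Ccne2 (cyclin E2), which shares 17.42% of its exonic bases with Ints8 on the other strand, by 1.59 to 1.90.

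**Figure D3:**
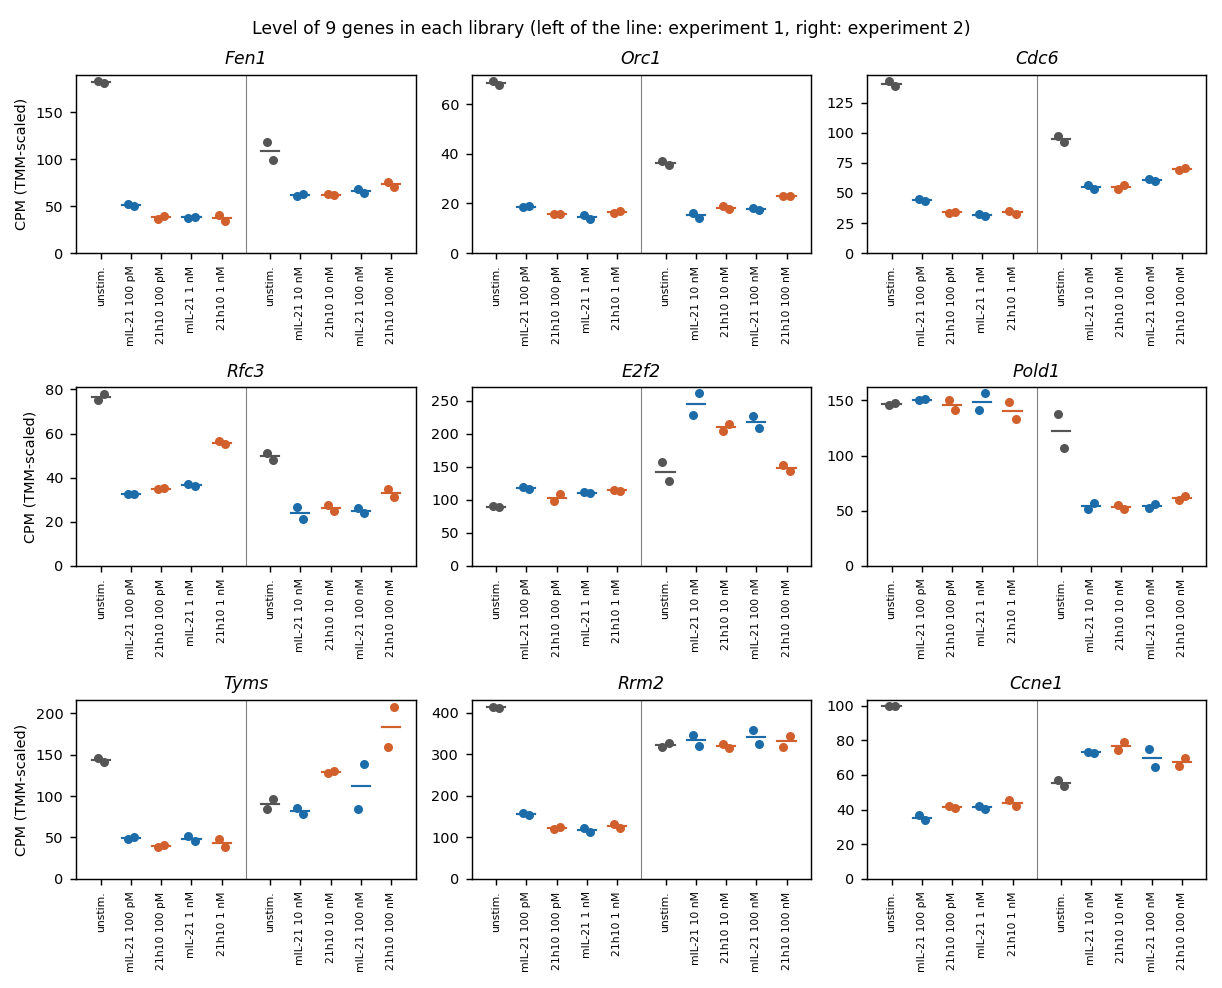
TMM-scaled CPM (vertical axis, from 0) of 9 genes in each library, points for libraries and short bars for means of duplicates, with experiment 1 left and experiment 2 right of the grey line. Fen1, Orc1 and Cdc6 fell in both experiments, Pold1 fell only in experiment 2, where the difference between experiments was tested (adjusted p = 1.13e-09), and Rrm2, Tyms and Ccne1 were low in treated cells of experiment 1 but not of experiment 2.

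Over the 10 libraries of experiment 1 the genes moved together. The median pairwise Pearson correlation of log2 CPM between members was 0.96, a description over libraries that differ mainly by whether cytokine was given. Mcm10 was the gene closest to the rest, with a median correlation of 0.98, and E2f2 (−0.80) and Pold1 (0.07) the most distant. Within the 8 treated libraries the median fell to 0.38.

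The direct comparison of 21h10 with mIL-21 at 100 pM asked whether the mimic lowered the set further than the native cytokine. With 21h10, 26 of the 51 genes were lower and 1 was higher, where 19.0% of all genes were lower and 19.6% higher. The median difference over the set was −0.17 on the log2 scale, against −0.01 over all genes. Library sizes taken from mapped reads moved the median of all genes to −0.11 and that of the set to −0.27. Pole, the catalytic subunit of the leading strand polymerase, stood at 121 and 124 CPM with mIL-21 and 88.1 and 88.5 with 21h10, with unstimulated cells at 164 and 164. The 21h10 libraries were both below both mIL-21 libraries, and the difference was −0.47 ± 0.0483 (SE; adjusted p = 7.03e-07). Fen1 differed by −0.42 ± 0.0654 (adjusted p = 7.05e-05) and Gins3, a GINS subunit, by −0.41 ± 0.0696 (adjusted p = 0.000167), from 18.4 and 17.4 CPM with mIL-21 to 13.3 and 13.6 with 21h10.

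By role, 8 of 11 origin licensing genes were lower with 21h10 at 100 pM, among them Cdc6 (−0.38), Mcm3 (−0.37) and Mcm2 (−0.35). So were 2 of 6 helicase activation genes, 2 of 5 clamp genes, 4 of 9 polymerase genes, 3 of 5 single-strand binding and Okazaki fragment genes, 3 of 5 nucleotide supply genes, 1 of 4 chromatin genes and 3 of 5 of the E2F and cyclin E group. Ccne1 was the gene that was higher with 21h10, at 41.9 and 40.8 CPM against 36.6 and 34.0 with mIL-21. Its difference of 0.22 ± 0.0586 (SE; adjusted p = 0.00604) did not pass with library sizes from mapped reads (0.12, adjusted p = 0.188) or without the second mIL-21 library (0.17, adjusted p = 0.0966).

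At 1 nM the direction was the other way for most genes that passed. With 21h10, 14 of the 51 genes were higher and 1 was lower than with mIL-21, where 19.6% of all genes were higher and 18.1% lower. The median difference was 0.09, against −0.01 over all genes, and 35 of the 51 estimates were positive. That median was 0.04 without the first 21h10 library, with mapped-read library sizes and with limma. With library sizes from mapped reads 63.6% of the genes called were higher in place of 93.3%. Rfc3, a clamp loader subunit, showed the largest difference. It stood at 37.0 and 36.2 CPM with mIL-21 and at 56.4 and 55.1 with 21h10, against 75.1 and 78.1 in unstimulated cells. Both 21h10 libraries were above both mIL-21 libraries, with a difference of 0.61 ± 0.0527 (SE; adjusted p = 7.68e-08).

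Pole2, the second subunit of the leading strand polymerase, stood at 38.5 and 39.1 CPM with 1 nM mIL-21 and 48.9 and 50.5 with 21h10, a difference of 0.36 ± 0.054 (SE; adjusted p = 4.7e-05). Its exons share 8.5% of their bases with Gm49384 on the same strand. Pcna stood at 267 and 275 CPM with mIL-21 and 342 and 320 with 21h10, a difference of 0.29 ± 0.0472 (adjusted p = 0.000109). The remaining 11 genes that were higher with 21h10 at 1 nM differed by 0.15 (Mcm10) to 0.27 (Mcm4), and 4 of the 5 clamp and clamp loader genes were among the 14. Cdt1 was lower with 21h10, at 45.9 and 39.2 CPM against 45.9 and 50.5, so 1 library of each group lay at about the same level. Its difference of −0.19 ± 0.0683 (SE; adjusted p = 0.0415) did not pass without the second mIL-21 library (−0.11) or the second 21h10 library (−0.07).

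**Figure D4:**
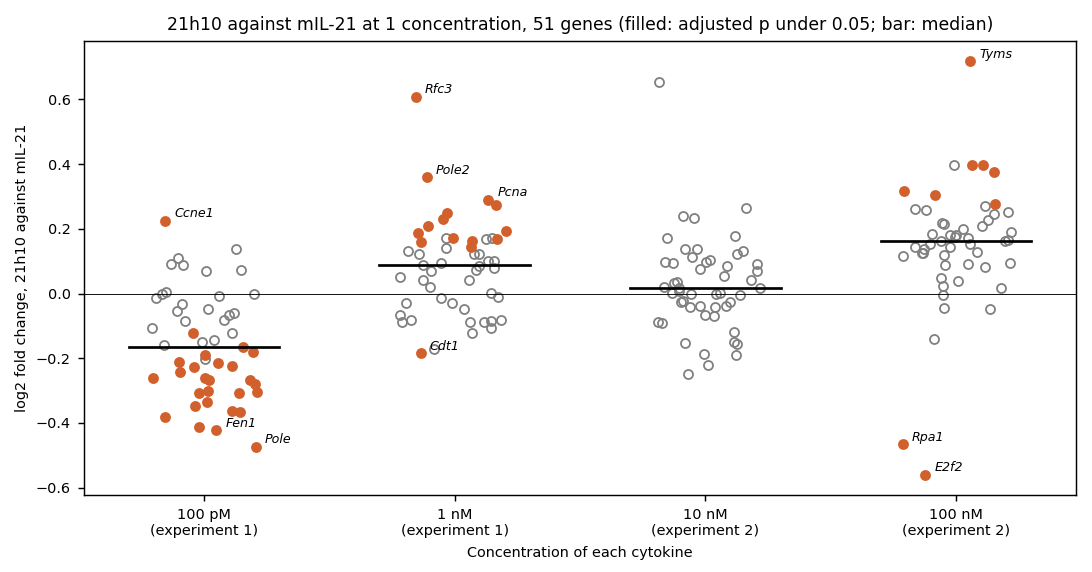
Difference between 21h10 and mIL-21 in log2 units (vertical axis) for each of the 51 genes (points) at each concentration; filled points have an adjusted p under 0.05 and bars are medians. The median lay below 0 at 100 pM (−0.17) and above 0 at 1 nM (0.09), 10 nM (0.02) and 100 nM (0.16).

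The difference between doses was tested directly, as the effect of 21h10 over mIL-21 at 1 nM less that at 100 pM. It was positive and past the threshold for 27 of the 51 genes and negative for 0, where 8.34% of all genes were higher and 10.0% lower. The genes with the largest differences were Mcm4 (0.50 ± 0.0698, SE), Rfc3 (0.50 ± 0.0747) and Cdc6 (0.48 ± 0.0793). Raising mIL-21 from 100 pM to 1 nM lowered 29 genes of the set and raised 2 (16.6% and 17.9% of all genes), with a median of −0.20 on the log2 scale. Raising 21h10 over the same range raised 11 and lowered 4 (20.1% and 19.1% of all genes), so the share raised was about that of all genes. The median of the set was 0.07, and it was 0.01 with mapped-read library sizes or limma and 0.03 without the first 1 nM 21h10 library. With library sizes from mapped reads 46.2% of the genes called for 21h10 were higher in place of 73.3%.

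The libraries given 21h10 at 100 pM were also set against those given mIL-21 at 1 nM, which compares the mimic with a higher dose of the native cytokine. No gene of the set passed the threshold by edgeR, where 0.157% of all genes were higher and 0.58% lower. There were 3 genes with an unadjusted p under 0.05, and DESeq2 and limma each called 0. The estimates ranged from −0.29 (Tyms) to 0.14, with standard errors from 0.0428 to 0.081, which bounds the differences that could have gone unseen. A p that misses the threshold does not show that the levels were equal.

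Experiment 2 repeated the comparison with unstimulated cells at 10 nM and 100 nM. Again most of the set was lower, but by less: the summed CPM was 67.6% and 63.7% of the unstimulated mean with 10 nM mIL-21, 65.4% and 65.7% with 10 nM 21h10, 70.1% and 66.0% with 100 nM mIL-21, and 72.7% and 74.9% with 100 nM 21h10. The 100 nM 21h10 libraries were the highest of the 8 treated ones. With mIL-21 at 10 nM 42 genes were lower and 3 higher (23.7% and 22.5% of all genes), and with 21h10 at 10 nM 40 were lower and 3 higher (24.9% and 25.2%). At 100 nM 41 were lower and 3 higher with mIL-21 (23.7% and 22.5%), and 38 were lower and 2 higher with 21h10 (25.8% and 25.0%).

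The median log2 fold changes of the set in experiment 2 were −0.73 with either cytokine at 10 nM, −0.65 with 100 nM mIL-21 and −0.47 with 100 nM 21h10, against medians of all genes between −0.02 and 0.0. Scaling by mapped reads in place of TMM moved the median of all genes to between −0.32 and −0.19 in these 4 comparisons and that of the set to between −1.003 and −0.78, so the set stayed below the bulk of genes under both scalings. There were 37 genes that were lower in all 4 groups, 1 that was higher in all 4, and 4 that passed in none, namely Gins1, Pole2, Rrm2 and E2f8.

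Rfc4 showed the largest fall of the set in all 4 groups but was not among the 3 lowest in any comparison of experiment 1. Rfc4, a clamp loader subunit, stood at 68.6 and 61.4 CPM in unstimulated cells, 29.2 and 24.3 with 10 nM mIL-21, 26.8 and 25.6 with 10 nM 21h10, 29.8 and 27.03 with 100 nM mIL-21, and 29.6 and 28.2 with 100 nM 21h10. All treated libraries were far below both unstimulated ones. The log2 fold changes of Rfc4 were −1.28 ± 0.109 (SE; adjusted p = 1e-07), −1.31 ± 0.11 (9.18e-08), −1.19 ± 0.109 (2.56e-07) and −1.17 ± 0.11 (3.51e-07). Its exons share 12.65% of their bases with Eif4a2 on the other strand. Gins2, a GINS subunit, fell from 32.6 and 28.0 CPM to between 12.3 and 16.8 CPM in the treated libraries, by 1.26, 1.14, 1.17 and 1.01 on the log2 scale in the same order, and shares 67.32% of its exonic bases with Gse1 on the other strand.

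Pold1 fell in experiment 2, from 122.6 ± 21.8 CPM (SD, n = 2) in unstimulated cells. It stood at 51.7 and 56.8 CPM with 10 nM mIL-21, 55.3 and 51.3 with 10 nM 21h10, 52.7 and 55.8 with 100 nM mIL-21, and 60.2 and 63.1 with 100 nM 21h10. The groups did not overlap, though the unstimulated duplicates lay far apart. The log2 fold changes of Pold1 were −1.18 ± 0.108 (SE; adjusted p = 2.7e-07), −1.20 ± 0.109 (2.23e-07), −1.18 ± 0.109 (2.93e-07) and −0.99 ± 0.109 (2.07e-06). Mcm6 fell from 834 and 798 CPM to 371 and 361 with 10 nM mIL-21 and 343 and 344 with 10 nM 21h10, and it stood at 389 and 366 with 100 nM mIL-21 and 425 and 415 with 100 nM 21h10. The fall of Mcm6 was largest with 10 nM 21h10, at −1.25 ± 0.0751 (SE; adjusted p = 1.55e-09). Orc1, at 36.9 and 35.5 CPM in unstimulated cells, fell to 16.3 and 14.2 with 10 nM mIL-21 (−1.25 ± 0.11, SE; adjusted p = 1.51e-07) and only to 22.8 and 23.0 with 100 nM 21h10 (−0.66 ± 0.109; adjusted p = 0.000128).

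By role, the origin licensing genes were lower in 11 of 11 cases in 3 of the groups and in 9 with 100 nM 21h10, where Orc6 (−0.27) and Mcm4 (−0.15) did not pass. All 5 clamp and clamp loader genes were lower in each group, and 8 of the 9 polymerase and primase genes, all but Pole2. Of the 6 helicase activation genes 5 were lower with mIL-21 at either dose and 4 with 21h10 at either dose. Of the 4 chromatin genes 4 were lower with 10 nM mIL-21 and 3 in each other group, with Chaf1b, a subunit of the histone chaperone CAF-1, at −0.29 to 0.02.

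Several genes did not follow the fall in experiment 2. Ccne1 stood at 57.0 and 53.4 CPM in unstimulated cells, 73.5 and 72.6 with 10 nM mIL-21, 74.5 and 79.0 with 10 nM 21h10, 74.7 and 64.8 with 100 nM mIL-21, and 65.4 and 70.0 with 100 nM 21h10. All treated libraries were above the unstimulated ones. Ccne1 thus changed, in log2 units, by 0.41 ± 0.0903 (SE; adjusted p = 0.00171), 0.48 ± 0.0907 (0.000445), 0.34 ± 0.0906 (0.00612) and 0.30 ± 0.091 (0.0136), but with library sizes from mapped reads they were 0.22, 0.20, 0.12 and −0.01 and none passed. Without the first 100 nM mIL-21 library its value there was 0.23 (adjusted p = 0.118), and without the second 100 nM 21h10 library 0.24 (adjusted p = 0.122) or the second unstimulated library 0.24 (adjusted p = 0.0567).

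E2f2 rose from 157 and 129 CPM to 228 and 261 with 10 nM mIL-21, 204.3 and 215 with 10 nM 21h10, and 227 and 209.4 with 100 nM mIL-21, while it stood at 152 and 144 with 100 nM 21h10. The last group overlapped with unstimulated cells and the other three did not. E2f2 thus changed, in log2 units, by 0.78 ± 0.099 (SE; adjusted p = 1.02e-05), 0.56 ± 0.099 (0.000253), 0.61 ± 0.099 (0.000114) and 0.05 ± 0.0992 (0.688). Rpa1, the large subunit of the single-strand binding protein, stood at 339 and 306 CPM in unstimulated cells, 423 and 410 with 10 nM mIL-21 and 418 and 374 with 100 nM mIL-21. It rose by 0.37 ± 0.0844 (SE; adjusted p = 0.00209) and 0.30 ± 0.0844 (adjusted p = 0.00925) with mIL-21, values that became 0.19 and 0.07 with library sizes from mapped reads and did not pass. Without the first 100 nM mIL-21 library the second was 0.22 (adjusted p = 0.125).

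Tyms, which makes thymidylate, stood at 84.5 and 96.5 CPM in unstimulated cells, 85.3 and 78.8 with 10 nM mIL-21, 128 and 130 with 10 nM 21h10, 84.6 and 139.1 with 100 nM mIL-21, and 160 and 207.5 with 100 nM 21h10. The 21h10 libraries were above the unstimulated ones at both doses, while the mIL-21 libraries overlapped with them at both doses. With 100 nM 21h10 Tyms rose by 1.02 ± 0.168 (SE; adjusted p = 0.000128). With 10 nM 21h10 it rose by 0.51 ± 0.167 (adjusted p = 0.0188), a call that was lost without either 10 nM 21h10 library (adjusted p = 0.0593 and 0.0809), without the first unstimulated library (0.0982), with DESeq2 (0.0905) and with mapped-read library sizes (0.184). The pseudogene Tyms-ps covers 17.33% of its transcript. The Tyms record counted, the longest and most read of 2, is a non-coding transcript in RefSeq, and the other record was not looked at. Rrm2 stood at 317 and 327 CPM in unstimulated cells and between 315 and 360 in the treated libraries, which overlap, with log2 fold changes from −0.01 to 0.09.

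Between 21h10 and mIL-21 at 10 nM no gene of the set passed the threshold by edgeR, and 0.00726% of all genes were higher and 0.0% lower. There were 4 genes with an unadjusted p under 0.05, and DESeq2 and limma called 0. The estimates ran from −0.25 (Cdt1) to 0.65 (Tyms), with standard errors from 0.0742 to 0.168. Both 21h10 libraries were above both mIL-21 libraries for 9 of the 51 genes and below both for 8, against 21.6% and 22.0% of all genes.

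At 100 nM the set was somewhat higher with 21h10 than with mIL-21. Both 21h10 libraries were above both mIL-21 libraries for 35 of the 51 genes and below both for 3, against 27.4% and 30.0% of all genes, and the median difference was 0.16 against 0.0. Of these genes 7 were higher and 2 lower past the threshold, where 4.02% of all genes were higher and 4.52% lower. Without any 1 of the 4 libraries compared, 1 to 3 genes passed in all, and with library sizes from mapped reads 3 passed, 33.3% of them higher in place of 77.8%, while the median stayed above 0 at 0.08.

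Tyms showed the largest of these differences, 0.72 ± 0.167 (SE; adjusted p = 0.014), and lost its call without the first mIL-21 library (0.39, adjusted p = 0.169), which held its lowest value, or the second 21h10 library (0.51, adjusted p = 0.208), and with DESeq2 (adjusted p = 0.0504). Rfc3 stood at 26.2 and 24.0 CPM with mIL-21 and 34.8 and 31.5 with 21h10, a difference of 0.40 ± 0.119 (SE; adjusted p = 0.0496). Pold2, an accessory subunit of the lagging strand polymerase, stood at 27.5 and 26.9 CPM against 36.2 and 35.5, a difference of 0.40 ± 0.113 (adjusted p = 0.0406). Neither call held without any 1 of the 4 libraries. The other 4 genes that were higher were Orc1 (0.38), Chaf1a, the large subunit of CAF-1 (0.32), Cdc45 (0.30) and Lig1 (0.28). The exons of Chaf1a share 52.5% of their bases with Ubxn6 on the other strand.

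The 2 genes that were lower with 21h10 at 100 nM were E2f2 and Rpa1. E2f2 differed by −0.56 ± 0.0992 (SE; adjusted p = 0.00217), and the 21h10 libraries lay well below both mIL-21 libraries. Rpa1 stood at 283 and 291 CPM with 21h10 against 418 and 374 with mIL-21, a difference of −0.47 ± 0.0847 (adjusted p = 0.00265), which did not pass without the first mIL-21 library (−0.39, adjusted p = 0.0605). Both genes were among those that had risen with mIL-21.

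Raising mIL-21 from 10 nM to 100 nM gave no gene of the set past the threshold by edgeR (0.0% of all genes higher and 0.0% lower), with 2 genes at an unadjusted p under 0.05 and 0 by DESeq2 and limma. Raising 21h10 gave 4 higher, Prim1 (the small primase subunit), Pold2, Cdc6 and Mcm6, and 2 lower, E2f2 and Rpa1, where 1.88% of all genes were higher and 3.45% lower. With library sizes from mapped reads 33.3% of the genes called were higher in place of 66.7%, and without any 1 of the 4 libraries compared 0 or 1 gene passed. Set against each other, the contrasts of 21h10 with mIL-21 at 100 nM and at 10 nM differed past the threshold in 0 genes by edgeR, DESeq2 and limma, with 7 at an unadjusted p under 0.05, where 0.457% of all genes were higher and 0.465% lower.

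The response to cytokine, averaged over the 4 treated groups and set against unstimulated cells, was then compared between experiments in a fit of all 20 libraries. Most of the set fell less in experiment 2: the difference was positive past the threshold for 32 of the 51 genes and negative for 4, where 31.2% of all genes were higher and 33.5% lower. Its median was 0.48 on the log2 scale against −0.02 over all genes. With library sizes from mapped reads the medians were 0.32 and −0.19, and 76.3% of the genes called were higher in place of 88.9%. Dose range and experiment changed together, so they cannot be told apart.

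The genes that differed most between experiments were Tyms, at 2.05 ± 0.168 (SE; adjusted p = 7.47e-10), Rrm2, at 1.65 ± 0.0765 (9.01e-14), Ccne1, at 1.63 ± 0.0839 (4.7e-13), Ccne2, at 1.51 ± 0.143 (7.34e-09), and Fen1, at 1.37 ± 0.0936 (4.06e-11). Rrm2, for example, had a mean response of −1.67 in experiment 1 and 0.04 in experiment 2. The 4 genes that fell more in experiment 2 were Pold1 (−1.19 ± 0.101, SE; adjusted p = 1.13e-09), Lig1 (−0.55 ± 0.0683), Mcm6 (−0.46 ± 0.0652) and Prim2, the large primase subunit (−0.31 ± 0.0759). Unstimulated levels differed as well, Orc1 for instance standing at 19.2 ± 0.0983 RPKM (SD, n = 2) in experiment 1 and 9.97 ± 0.65 RPKM in experiment 2.

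**Figure D5:**
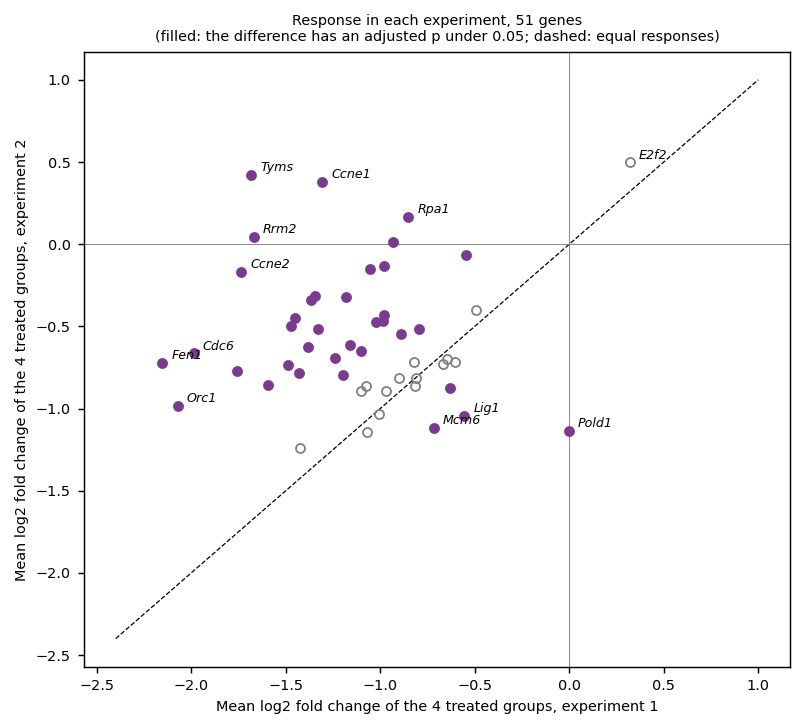
Mean log2 fold change of the 4 treated groups against unstimulated cells for each of the 51 genes, experiment 1 (horizontal axis) against experiment 2 (vertical axis); filled points differ between experiments with an adjusted p under 0.05 and the dashed line marks equal responses. Most points lie above the line, with Tyms, Ccne1, Rrm2 and Ccne2 farthest above it and Pold1 farthest below.

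The 15 genes with an E2F word in the promoter window had a median response of −1.10 in experiment 1 and −0.78 in experiment 2. For the 27 genes whose window held none of the words the medians were −1.10 and −0.61. A difference between these groups was not tested. Where several windows were listed for a gene, as for Fen1 and Lig1, only the first was searched. By GENCODE positions the windows searched for Fen1 and Lig1 lay wholly before the start of the gene. A window without the words thus does not show that the promoter lacks them.

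Other genes of the same processes were taken from lists made for comparison. With 1 nM 21h10 42.1% of all genes were lower and 38.3% higher, and with 100 nM 21h10 25.8% were lower and 25.0% higher. Of 34 further origin and fork genes 29 were lower and 2 higher with 1 nM 21h10 against unstimulated cells, and 19 were lower and 2 higher with 100 nM 21h10. Dna2, a nuclease of Okazaki fragment processing, fell with 1 nM 21h10 from 41.8 ± 1.41 to 8.34 ± 0.0882 CPM (SD, n = 2), by 2.33 on the log2 scale. Pold4, the smallest subunit of the lagging strand polymerase, went the other way, from 16.6 ± 0.272 to 82.9 ± 0.95 CPM, a rise of 2.32. With 100 nM 21h10 the largest falls were those of Rnaseh2a, which removes RNA primers (−0.99), and Chtf18, of an alternative clamp loader (−0.95).

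Of 18 further nucleotide supply genes 14 were lower and 3 higher with 1 nM 21h10, led by the folate enzyme Shmt1 (−2.72) and the purine enzyme Gart (−2.58), and 13 were lower and 2 higher with 100 nM 21h10, led by Dctd (−1.27) and the pyrimidine enzyme Cad (−1.20). Of 18 homologous recombination and fork protection genes 15 were lower and 2 higher with 1 nM 21h10, led by the nuclease Exo1 (−2.29) and by Brca2 (−1.59), and 13 were lower and 1 higher with 100 nM 21h10, led by the kinase gene Atr (−0.99) and by Fancd2 (−0.94).

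The CDK2 and inhibitor list held Ccna2, Cdk2, Cdc25a and the inhibitor genes Cdkn1a, Cdkn1b, Cdkn1c, Cdkn2a, Cdkn2b, Cdkn2c and Cdkn2d. Its counts therefore pool the inhibitors with genes that are not inhibitors. Of the 10 genes of the CDK2 and inhibitor list 7 were higher and 3 lower with 1 nM 21h10, where 38.3% of all genes were higher and 42.1% lower. With 100 nM 21h10 4 were higher and 2 lower, near the 25.0% and 25.8% of all genes. Cdkn2d, an inhibitor of the cyclin D kinases, rose with 1 nM 21h10 from 27.3 ± 0.303 to 199 ± 5.14 CPM, by 2.87 ± 0.0557 (SE; adjusted p = 1.02e-17), and with 100 nM 21h10 from 45.2 ± 9.19 to 113 ± 0.79 CPM, by 1.32 ± 0.119 (2.39e-07). Cdkn2b, another inhibitor of these kinases, was also higher in both but stayed below 2 CPM. Against mIL-21 at 100 pM, 21h10 raised Cdkn1a, the p53 target that inhibits cyclin-dependent kinases, from 156 ± 2.04 to 327 ± 7.51 CPM, by 1.06 ± 0.0469 (adjusted p = 2.02e-11). At 1 nM the difference in Cdkn2d was 0.61 ± 0.0511 (adjusted p = 4.9e-08).

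Among 10 further E2F, DP and pocket protein genes, 5 were lower and 4 higher with 1 nM 21h10, about the shares of all genes (42.1% lower and 38.3% higher). Tfdp1, the partner of E2F factors on DNA, fell by 1.69, while Rb1, the retinoblastoma protein that restrains them, rose from 80.8 ± 0.553 to 218 ± 24.2 CPM, by 1.43 ± 0.074 (SE; adjusted p = 5.02e-12). With 100 nM 21h10, 3 were lower and 2 higher (25.8% and 25.0% of all genes), led by Tfdp2, another partner (−1.28), and the pocket protein gene Rbl2 (0.51).

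Between the cytokines the related lists differed from each other. At 100 pM 16 of the 34 origin and fork genes were lower and 4 higher with 21h10 than with mIL-21. The largest changes there were those of Dna2 (−0.60) and Chtf18 (−0.59). With 1 nM of each cytokine this list had 10 genes higher with 21h10 and 2 lower, set against shares of 19.6% and 18.1% over all genes. Mcm9 (1.05) and Asf1a (0.71), a histone chaperone, changed most in that comparison. The CDK2 and inhibitor list went the other way from the set at 100 pM, with 5 of 10 genes higher and 2 lower with 21h10, and the mitosis genes were 3 higher and 2 lower of 20, where 19.6% of all genes were higher and 19.0% lower. At 1 nM the nucleotide supply list was led by Samhd1, which breaks down deoxynucleotides, at 802 ± 41.8 CPM with mIL-21 and 1232 ± 54.1 with 21h10, a difference of 0.62 ± 0.0503 (SE; adjusted p = 3.21e-08). At 100 nM Samhd1 went the other way, at 1405 ± 0.629 CPM with mIL-21 and 1022 ± 12.7 with 21h10 (−0.46 ± 0.0726; adjusted p = 0.00082), while Shmt1 (0.47), Tipin and Timeless, a pair that protects forks (0.35 and 0.33), and Cdkn1a (0.63) were higher with 21h10.

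The 20 mitosis genes, which act after S phase in the same dividing cells, gave a point of comparison. In experiment 1, 18 of them were lower with either cytokine at 100 pM and 19 with 1 nM mIL-21, each with 1 higher and medians of −0.55 (mIL-21), −0.58 (21h10) and −0.62. Of all genes 39.4% were lower and 38.3% higher with 100 pM mIL-21, and 41.3% and 40.2% with 100 pM 21h10. With 1 nM mIL-21 these shares were 40.3% and 39.9%. With 1 nM 21h10 14 of the 20 mitosis genes were lower (42.1% of all genes) and 1 higher (38.3%), with a median of −0.46 against −1.07 for the replication genes. With 100 nM 21h10 6 were lower (25.8% of all genes) and 3 higher (25.0%), with a median of 0.05 against −0.47. Ccnb1 (cyclin B1) fell most with 1 nM 21h10, from 295 ± 4.29 to 119 ± 2.73 CPM, by 1.31 ± 0.0485 (SE; adjusted p = 4.51e-14). With 100 nM 21h10 Prc1, a protein of the mitotic spindle midzone, rose from 180 ± 9.91 to 286 ± 9.79 CPM, by 0.67 ± 0.0791 (adjusted p = 4.71e-06). At 1 nM 11 of the 20 were higher with 21h10 than with mIL-21 (19.6% of all genes) and 0 lower (18.1%), led by Cenpf (0.43) and Bub1 (0.35). The difference between the lists themselves was not tested.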

How the data were processed

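RNA was sequenced by the authors on an Illumina NovaSeq from KAPA mRNA libraries. Per the submitters' processing notes, TopHat2 2.0.11, Bowtie2 2.2.6, SAMtools 0.1.8, bedtools 2.25.0 and edgeR were used, with the build mm10 (GRCm38). The authors deposited, for each library alone, the raw count of reads per RefSeq transcript, and the RPKM value they computed from that count, the transcript length and the mapped reads. Library titles name the cytokines WT and h10, which were read as mIL-21 and 21h10. The use of strand was not given in the sources used here.

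For this work the longest of the 31682 transcripts listed stood for each of 23992 symbols. Counts were filtered with edgeR's filterByExpr (minimum count 10, minimum total 15), TMM-scaled and tested (glmQLFit, glmQLFTest) over the 10 libraries of an experiment, group as the factor, with Benjamini-Hochberg adjustment over 13974 genes (experiment 1), 13772 (experiment 2) or 14530 (both experiments, 20 libraries). The software was R 4.3.3, edgeR 4.0.16, limma 3.58.1, DESeq2 1.42.0, Python 3.11.15 and BLAST 2.17.0, and the scripts were tested on simulated data. Duplicate libraries set the precision, at 27072917 to 94070730 reads on genes. Members and lists were chosen with earlier results of these data known. Members given in full are the 3 highest and 3 lowest past the threshold in each comparison with unstimulated cells or between cytokines at 1 dose (fewer where fewer passed), and for each related list, in contrasts of 21h10, the 2 largest changes. Others were chosen after their values were seen. Alternatives were DESeq2, no filter, limma on log2(RPKM + 1), mapped-read library sizes, the most-read transcript, a replicate block, the compared groups alone, leaving out each library, and adjusted p under 0.01. Exonic overlap and copies came from GENCODE M21, promoters from RefSeq.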

Additional observations from a re-analysis of the deposited data

Results flagged for a closer look

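The effect of 21h10 over mIL-21 differed between 1 nM and 100 pM by a test of the difference itself in 27 of the 51 genes. Each was more positive at 1 nM and 0 went in the other direction, where 8.34% of all genes were higher and 10.0% lower. In 100 pM cells 26 genes were lower with 21h10 (19.0% of all genes), and in 1 nM cells 14 were higher (19.6%). The response to cytokine differed between experiment 2 and experiment 1 in 36 genes by the same kind of test. It was more positive in experiment 2 in 32 (31.2% of all genes) and more negative in 4 (33.5%). Dose range and experiment cannot be told apart in that comparison. Groups of duplicates are too small to look for single libraries that stand apart.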

How the results depend on the processing

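In the comparisons of experiment 1 with unstimulated cells 50 or 51 of the 51 genes passed under every alternative. Counts of genes past the threshold moved by over 1.5 times in these cases. For 21h10 against mIL-21 at 1 nM (15) there were 9 at adjusted p under 0.01, 9 with limma, 7 with the compared groups alone and 12 to 23 with a library left out (23 without the first 21h10 library). For 21h10 at 1 nM against 100 pM (15) there were 7 at adjusted p under 0.01, 9 with limma and 7 to 19 with a library left out (7 without the first 100 pM library). For 21h10 against mIL-21 at 100 nM (9) there were 2 at adjusted p under 0.01, 2 with limma, 3 with mapped-read library sizes, 18 with the compared groups alone and 1 to 3 with a library left out. For 21h10 at 100 nM against 10 nM (6) there were 1 at adjusted p under 0.01, 14 with DESeq2, 10 without a filter, 0 with limma, 3 with mapped-read library sizes, 22 with the compared groups alone and 0 to 1 with a library left out. Where 0 passed, 1 passed without a filter for 21h10 at 100 pM against mIL-21 at 1 nM, for 21h10 against mIL-21 at 10 nM (also 1 with the compared groups alone) and for mIL-21 at 100 nM against 10 nM. The causes were not tested.

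By mapped reads the summed level of the set, as a percentage of unstimulated cells, was 53.4 with 100 pM mIL-21, 44.4 with 100 pM 21h10, 43 with 1 nM mIL-21, 44.4 with 1 nM 21h10, 57.9 with 10 nM mIL-21, 54.3 with 10 nM 21h10, 58.3 with 100 nM mIL-21 and 59.9 with 100 nM 21h10. Ccne1 with 100 nM 21h10 was the one called value whose sign turned, to −0.006 with limma and −0.008 with mapped-read library sizes. Among single called values 5744 alternatives kept the call and 221 lost it. With the duplicate number as a replicate block the counts between cytokines were 26 at 100 pM, 13 at 1 nM, 0 at 10 nM and 9 at 100 nM, and no count moved by over 1.5 times. Differences between duplicates correlated by −0.0617 to 0.0293 between groups of experiment 1 and by −0.167 to 0.227 in experiment 2, so the numbers were not taken to pair libraries.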
